A study of Mus musculus with 9 samples.

Results

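The genes described here are the 4 pyruvate dehydrogenase kinases of the mouse, Pdk1, Pdk2, Pdk3 and Pdk4, and 6 genes that are widely read as signs of low oxygen or of altered glucose use, Ldha, Slc2a1, Slc2a2, Vegfa, Car9 and Hif1a. They were chosen by name, and every probe set whose annotation gives 1 of these symbols and no other was taken. All 10 genes were found, with 19 probe sets, among 18193 genes measured on 9 Affymetrix whole-genome mouse arrays. Where a gene had several probe sets, the brightest by its mean over all arrays was the main one.

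Of the 9 arrays, 5 held RNA of hepatocellular carcinomas that the titles name triple knockout (TKO), with the listed genotype RbΔ/Δ; p130Δ/Δ; p107+/-, so 1 intact copy of p107 remained. The tumours were dissected 4 months after adenovirus with Cre recombinase (Ad-Cre) had been injected into the spleen. The other 4 arrays held RNA of tumour-free livers of wild-type adult mice, for which no virus is listed. Genotype, virus and tumour state therefore changed at once between the groups. The sources used here do not give strain, the age at dissection, the promoter that drives Cre or whether each sample came from its own animal, and p-values therefore rest on the spread between arrays, which may be technical. Each sample was a piece of tissue, in which fewer cells of a type and less RNA per cell cannot be told apart.

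Pyruvate dehydrogenase, a mitochondrial enzyme complex, turns pyruvate into acetyl-CoA. The pyruvate dehydrogenase kinases phosphorylate the complex and switch it off, and its phosphatases switch it on again. In low oxygen the transcription factor HIF-1, made of HIF-1α (Hif1a) and ARNT, is known to raise Pdk1 together with glucose transporters, glycolytic enzymes, lactate dehydrogenase A, VEGF-A and carbonic anhydrase IX. HIF-1α itself is controlled mostly through the stability of the protein, which an array does not measure.

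Pdk1 was lower in every tumour than in every liver, by 14.4-fold on average with its main probe set, and the other 9 genes did not pass the test. On the log2 scale Pdk1 differed by -3.85 with that probe set, and by -3.45 and -2.59 with its other bright ones. With limma and a Benjamini-Hochberg adjusted p under 0.05 over all genes, 1 of the 10 genes was called and it was lower, while 33.5% of all genes were called, 16.1% higher and 17.4% lower in the tumours. At an unadjusted p under 0.05 there were 2 of the 10, Pdk1 and Hif1a. Tumour and liver values did not overlap for 1 of the 10 genes, against 29.8% of all genes. The median log2 difference, tumour minus liver, was -0.13 for the 10 genes and -0.08 for all genes. The spread among tumours exceeded that among livers for 8 of the 10 genes, compared with 58.0% of all genes. The share of higher genes among all calls was 48.0%, and 22.3% with arrays centred on their 75th percentile. The counts of the gene lists that follow stand beside the same 16.1% higher and 17.4% lower over all genes. Of 12 measured housekeeping genes 6 rose and 1 fell, with a median of 0.34.

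**Figure D1:**
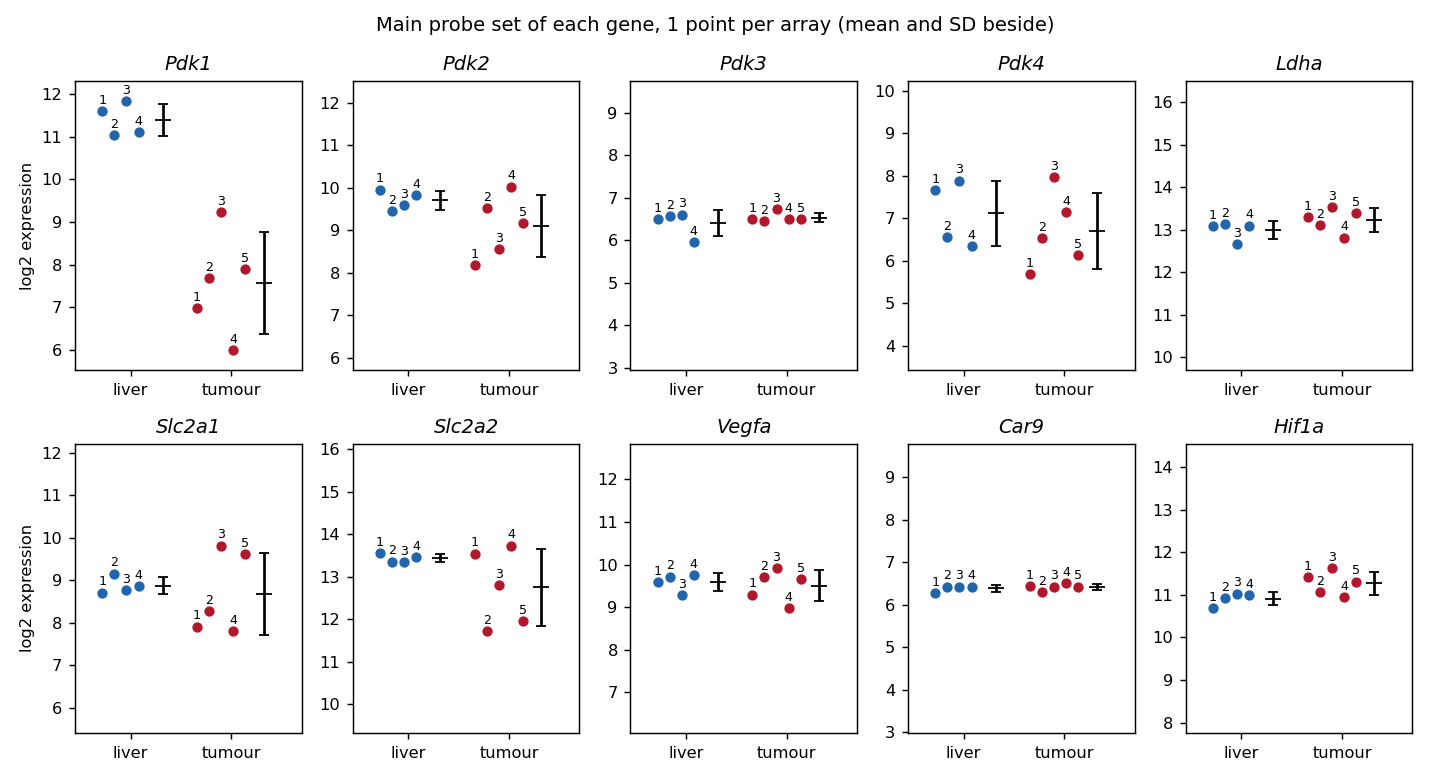
Log2 expression of the main probe set of each of the 10 genes, 1 numbered point per array (blue, 4 livers; red, 5 tumours), with the mean and SD beside the points; every panel spans the same number of log2 units. Pdk1 in tumours lies between 5.99 and 9.24, below all livers (11.05 to 11.84), and the groups overlap for the other 9 genes.

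The array facts that bear on these values were as follows. Array medians were 6.22 to 6.27. Bacterial TrpnX control probe sets, which have no target in mouse RNA, read 3.69 to 4.36, and values in or near that range are called background here. Control probe sets at both ends of Actb, whose log2 difference (3' minus 5') reflects how long the RNA is, gave 0.61 ± 0.08 (SD, n = 5) for tumours against 0.96 ± 0.04 (SD, n = 4) for livers. The two-sided exact permutation p was 0.00794, the lowest that 5 against 4 can give (0.0159 adjusted over 2 controls), and the Gapdh pair gave -0.21 ± 0.03 and -0.28 ± 0.05 (exact p = 0.0635). Xist, expressed in females, was low in tumours 1 and 2 and liver 4 (6.34 to 6.66) and high in the other 6 arrays (12.68 to 13.55). Of the targeted genes, Rbl2 (p130) read 6.77 to 8.43 in tumours and 9.44 to 10.02 in livers, Rb1 read 8.76 to 9.38 and 7.69 to 8.33, and Rbl1 (p107) read 4.63 to 4.82 and 4.23 to 5.83. The Rb1 probe set was thus higher in the libraries labelled knockout, and which exons were deleted is not stated, so these probe sets do not check the genotype. Some markers of non-parenchymal cells differed between the groups and others of the same lists did not pass. Of 8 Kupffer cell and macrophage markers 4 fell and none rose, with Cd68 at 0.69 and C1qa at 0.08 among those that did not pass. Of 8 endothelial markers 3 fell and none rose. Of 6 lymphocyte markers 1 fell, and of 5 bile duct markers 1 rose and 1 fell. Over all genes 17.4% were lower and 16.1% higher. The macrophage list summed on the linear scale reached a log2 level of 11.05 to 13.38 per tumour against 13.14 to 14.12 per liver, and the endothelial list 10.14 to 11.30 against 12.33 to 12.71. Of 8 hepatocyte markers 1 fell (Apob), with sums of 17.51 to 17.74 and 17.72 to 17.84, and no marker of these 3 lists averaged in the TrpnX range. Of 8 stellate cell and fibroblast markers 2 rose and 3 fell, with sums of 11.82 to 13.73 in tumours and 12.57 to 12.85 in livers. The part of RNA length and of these cell types in the results on the 10 genes was not tested.

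Pdk1 encodes the kinase isoform that is the textbook HIF-1 target of the family. Its main probe set read 6.98, 7.69, 9.24, 5.99 and 7.90 in tumours 1 to 5 and 11.61, 11.05, 11.84 and 11.12 in livers 1 to 4. The highest tumour, tumour 3, stayed 1.82 log2 units below the lowest liver, and the tumours were spread over 3.24 units. The tumours averaged 7.56 ± 1.20 (SD, n = 5) and the livers 11.41 ± 0.38 (SD, n = 4), and Pdk1 fell by 3.85 on the log2 scale (SE 0.55, 95% interval -5.09 to -2.60, limma adjusted p = 0.000918). Among all 18193 genes this was the decrease of rank 39. With 1 array left out at a time the difference lay between -4.27 and -3.46 and was called each time, and without the 3 arrays of low Xist it was -3.79 (adjusted p = 0.0135).

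The other bright probe sets of Pdk1 gave the same order of groups. A probe set with a mean of 9.14 over all arrays read 7.56, 7.87, 9.06, 7.56 and 7.90 in tumours and 10.76, 10.12, 10.97 and 10.45 in livers. Tumours minus livers gave -2.59 (SE 0.31, adjusted p = 0.000406 over all probe sets). Another, with a mean of 7.69, read 5.67, 6.78, 7.34, 5.39 and 5.58 in tumours and 9.89, 9.20, 10.06 and 9.25 in livers. Tumours minus livers gave -3.45 (SE 0.42, adjusted p = 0.000406). In each of these 3 probe sets tumour 3 was the highest tumour and tumour 4 the lowest, next to tumour 1 in the second. The fourth probe set lay near background on all arrays, averaging 4.14 ± 0.11 (SD, n = 5) and 4.40 ± 0.15 (SD, n = 4), and did not pass (difference -0.26, adjusted p = 0.0656). The mean over all 4, which includes the one near background, gave -2.54 (adjusted p = 0.000414).

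The other 3 kinases did not pass the test. Pdk2, a widely expressed isoform, read 8.19, 9.53, 8.57, 10.03 and 9.18 in tumours and 9.96, 9.46, 9.59 and 9.82 in livers. Tumours minus livers gave -0.61 (SE 0.34, 95% interval -1.38 to 0.16, adjusted p = 0.193). Tumours 1, 3 and 5 lay below all livers, while tumour 4, the lowest for Pdk1, lay above them. Pdk3 read 6.49, 6.45, 6.73, 6.49 and 6.49 in tumours and 6.49, 6.56, 6.60 and 5.95 in livers. Tumours minus livers gave 0.13 (SE 0.14, 95% interval -0.18 to 0.44, adjusted p = 0.48). The exact value 6.48984 stood on 4 arrays, and 36.9% of all probe sets had the same value on at least 2 arrays in the deposited table. The level of Pdk3 was close to the array medians, and whether its transcript was detected was not tested. Pdk4, the isoform that fasting and PPARA are known to raise, read 5.69, 6.54, 7.97, 7.15 and 6.13 in tumours and 7.66, 6.56, 7.89 and 6.35 in livers. The groups differed by -0.42 (SE 0.50, 95% interval -1.54 to 0.70, adjusted p = 0.531). All livers lay within the range of the tumours for Pdk4.

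The differences between isoforms within arrays were taken after the values had been seen, and are given without a test. The log2 level of Pdk1 minus that of Pdk2 was -1.54 ± 1.69 (SD, n = 5) over tumours against 1.70 ± 0.40 (SD, n = 4) over livers. Pdk1 minus Pdk3 averaged 1.03 ± 1.12 and 5.01 ± 0.34, and Pdk1 minus Pdk4 averaged 0.86 ± 1.15 and 4.29 ± 0.41, over the same arrays. These values set no level of 1 isoform against another.

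**Figure D2:**
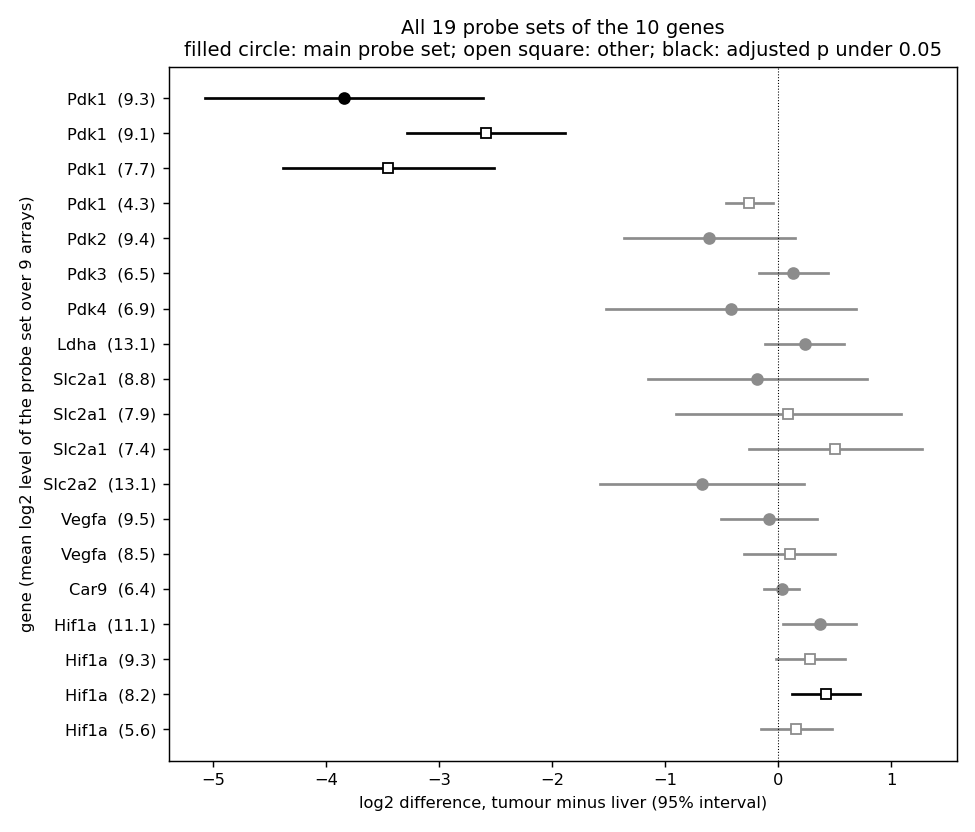
Log2 difference, tumour minus liver, with its 95% interval for all 19 probe sets of the 10 genes, ordered by gene and then by mean level (in brackets); circles are main probe sets, squares others, and black marks an adjusted p under 0.05 over all probe sets. The 3 brighter Pdk1 probe sets lie between -3.85 and -2.59, and the only other black mark is a Hif1a probe set at 0.42.

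The promoter windows of the gene that fell and of 3 textbook hypoxia genes that did not pass are shown here, so that the HIF core word can be compared with the measured change. They run from 250 bases before to 50 bases after a RefSeq start site on GRCm38.p6, 5' to 3' on the gene's strand, and the capitals mark every ACGTG or GCGTG on either strand. Each is the first start site listed for its gene. All 10 genes had windows. Those of Vegfa, another textbook hypoxia gene that did not pass, are not printed but are described below.
Pdk1, chr2:71872974-71873273, plus strand: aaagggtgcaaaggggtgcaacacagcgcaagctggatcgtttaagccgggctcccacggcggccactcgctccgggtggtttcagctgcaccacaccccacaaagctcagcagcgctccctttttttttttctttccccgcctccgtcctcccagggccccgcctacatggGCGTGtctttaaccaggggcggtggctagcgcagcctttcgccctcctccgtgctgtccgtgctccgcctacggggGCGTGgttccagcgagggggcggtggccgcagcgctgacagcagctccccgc
Ldha, chr7:46845554-46845853, plus strand: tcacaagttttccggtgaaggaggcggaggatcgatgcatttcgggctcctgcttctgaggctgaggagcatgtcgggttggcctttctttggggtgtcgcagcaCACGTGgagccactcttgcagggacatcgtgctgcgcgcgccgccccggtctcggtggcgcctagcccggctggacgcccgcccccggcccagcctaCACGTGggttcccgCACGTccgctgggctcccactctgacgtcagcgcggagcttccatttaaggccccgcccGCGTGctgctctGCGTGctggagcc
Slc2a1, chr4:119108495-119108794, plus strand: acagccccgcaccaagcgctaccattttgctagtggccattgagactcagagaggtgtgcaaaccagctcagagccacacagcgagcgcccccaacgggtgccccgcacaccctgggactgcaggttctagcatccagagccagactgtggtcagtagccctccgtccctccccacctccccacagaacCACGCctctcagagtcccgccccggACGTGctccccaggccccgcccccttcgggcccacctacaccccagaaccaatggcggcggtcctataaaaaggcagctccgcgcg
Car9, chr4:43506776-43507075, plus strand: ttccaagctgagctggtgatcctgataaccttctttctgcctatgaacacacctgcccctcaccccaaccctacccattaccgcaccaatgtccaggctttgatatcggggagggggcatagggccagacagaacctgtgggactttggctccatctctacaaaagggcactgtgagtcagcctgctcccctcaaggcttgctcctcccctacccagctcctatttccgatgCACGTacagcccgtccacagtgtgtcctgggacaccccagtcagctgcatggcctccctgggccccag

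Positions count from the start site to the first base of each match, read 5' to 3' on the gene's strand whichever strand holds the word. Pdk1 had GCGTG at -78 and at -2. Its other start site, chr2:71874654-71874953, had no match. Ldha had 7 matches, of which 4 came from the palindrome CACGTG, which reads ACGTG on each strand and also holds the E-box of MYC-like factors. Slc2a1 had matches at -61 and -36, and Car9 had 1 at -18. Vegfa had no match at its first start site, chr17:46032328-46032627, and matches at -218 and -211 at its other, chr17:46025114-46025413. Because Vegfa is on the minus strand, that other window lies downstream of the first start site, and its matches do not precede it. A match was found in 10 of the 14 windows of the 10 genes and in 43.8% of all 32851 windows of that length. By gene, 9 had a match in at least 1 window, Vegfa only through its second start site. No share by gene was computed over all genes, and a gene with several windows has more chances of a match. Slc2a2 had none. The E2F words TTTCCCGC, TTTGGCGC, TTTGCCGC and TTTCGCGC were found on either strand in 0 of the 14 windows and in 2.27% of all windows. A match is a description of letters, and these windows hold only part of what can act on a gene.

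The enzyme complex on which the kinases act was lower in part. Of 10 measured genes of the pyruvate dehydrogenase complex, its phosphatases, the mitochondrial pyruvate carrier and pyruvate carboxylase, 7 fell and none rose, beside 17.4% lower over all genes, and the median log2 difference was -0.62. Pdha1, the subunit that the kinases phosphorylate, read 10.70, 10.84, 10.88, 10.53 and 10.11 in tumours and 11.44, 11.26, 11.41 and 11.52 in livers, without overlap. It fell by 0.80 (SE 0.16, adjusted p = 0.00458). Dlat, the acetyltransferase core, fell by 1.23 (SE 0.23, adjusted p = 0.00346) with a probe set that can cross-hybridise, and its other probe sets fell by 1.31 and 1.32. Of the other subunits of the complex, Dld fell by 0.59 (SE 0.13, adjusted p = 0.00827). Pdhb and Pdhx did not pass, at 0.14 (SE 0.14, adjusted p = 0.433) and -0.16 (SE 0.15, adjusted p = 0.415). Pdpr, a regulatory subunit of the phosphatase, fell by 1.14 (SE 0.16, adjusted p = 0.000839), and its dimmer probe sets by 0.90, 0.70 and 0.37. Of the phosphatases themselves, Pdp2 fell by 0.62 (SE 0.21, adjusted p = 0.0445), a call lost without tumour 1, 3, 4 or 5 or liver 1, 3 or 4 (-0.67 to -0.49). Pdp1 differed by 0.36 (SE 0.23, adjusted p = 0.242) and was called without tumour 4 (0.53). Without the 3 arrays of low Xist 5 of the list were called lower, and with the replicate block described at the end 4 were.

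Ldha, the lactate dehydrogenase subunit that favours lactate formation, showed no difference past the threshold. It read 13.30, 13.12, 13.53, 12.82 and 13.40 in tumours and 13.09, 13.13, 12.67 and 13.10 in livers, and the groups overlapped. The difference was 0.23 (SE 0.16, 95% interval -0.12 to 0.59, adjusted p = 0.276). Ldhb, the subunit of oxidative tissues, fell by 0.34 (SE 0.07, adjusted p = 0.00839), and its 3 other probe sets fell by 1.09, 0.63 and 0.52. The main Ldhb probe set was called in 16 of 19 alternatives, and among the losses were centring on housekeeping genes (-0.33) and leaving out the arrays of low Xist (-0.31). Ldhd, a mitochondrial D-lactate dehydrogenase, fell by 1.34 (SE 0.13, adjusted p = 9.61e-05). Slc16a1, the lactate carrier MCT1, rose by 1.37 (SE 0.29, adjusted p = 0.00613), while its other, dimmer probe set differed by 0.10 and did not pass, and the mean of both gave 0.74. In the main probe set all tumours (12.34, 10.86, 12.22, 12.19 and 11.70) lay above all livers (10.38, 10.77, 10.40 and 10.40). Slc16a3, the lactate exporter MCT4 and a known hypoxia gene, read 5.85 ± 0.20 (SD, n = 5) and 5.88 ± 0.18 (SD, n = 4), a difference of -0.03 whose sign changed between settings (adjusted p = 0.869). Of these 7 lactate genes 1 rose and 2 fell in all.

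Slc2a1 and Slc2a2 encode GLUT1, the transporter of most growing cells, and GLUT2, the low-affinity transporter of hepatocytes. Slc2a1 read 7.91, 8.27, 9.81, 7.80 and 9.62 in tumours and 8.70, 9.15, 8.76 and 8.85 in livers. Tumours 3 and 5 lay above all livers and tumours 1, 2 and 4 below them. The mean difference was -0.19 (SE 0.44, 95% interval -1.17 to 0.80, adjusted p = 0.762), and its sign depended on the probe set, at 0.09 and 0.50 in the other 2, neither called. Both other probe sets again placed tumours 3 and 5 highest, at 9.17 and 8.81 in one and 8.69 and 8.18 in the other. Slc2a2 read 13.54, 11.72, 12.80, 13.73 and 11.96 in tumours and 13.55, 13.36, 13.35 and 13.46 in livers. Its mean difference was -0.68 (SE 0.41, 95% interval -1.59 to 0.24, adjusted p = 0.219). Tumours 2, 3 and 5 lay below the livers and tumour 4 above them, and the SD was 0.90 among tumours and 0.09 among livers. For both transporters, then, single tumours stood on either side of the livers.

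Of 9 other genes of the Slc2a transporter family 1 rose and 2 fell, with a median of -0.12. Slc2a5, a fructose transporter, fell by 0.70 (SE 0.15, adjusted p = 0.00829). Slc2a4, the insulin-responsive GLUT4, rose by 0.69 (SE 0.21, adjusted p = 0.032), a call lost without tumour 4 or liver 1, 2 or 3 (0.64 to 0.70) or without the 3 arrays of low Xist (0.88), while its other probe set rose by 1.79. Slc2a12 fell by 0.36 (SE 0.12, adjusted p = 0.0422), a call lost without tumour 1, 3, 4 or 5 or liver 1, 2 or 3 (-0.39 to -0.30), and its other probe set, near background, differed by -0.11. Slc2a3, the high-affinity GLUT3, lay at 5.80 ± 0.40 (SD, n = 5) and 5.55 ± 0.15 (SD, n = 4), a difference of 0.25 (adjusted p = 0.342) whose sign turned with probe sets ending in x_at or s_at left out.

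Hif1a, the oxygen-regulated subunit of HIF-1, came closest to the threshold after Pdk1. It read 11.41, 11.06, 11.63, 10.95 and 11.32 in tumours and 10.68, 10.93, 11.03 and 10.99 in livers. Tumours 1, 2, 3 and 5 lay above all livers and tumour 4 among them. The difference was 0.37 (SE 0.15, 95% interval 0.04 to 0.69, adjusted p = 0.081), and without tumour 4 it was 0.45 and called (adjusted p = 0.0371). Of its 3 other probe sets, 1 was called. Its tumours read 8.68, 8.34, 8.72, 8.16 and 8.24 and its livers 8.16, 7.92, 7.88 and 8.07, which did not overlap although tumour 4 and liver 1 both round to 8.16 (difference 0.42, SE 0.13, adjusted p = 0.0431 over all probe sets). The others differed by 0.28 and 0.16 and did not pass. In all, 4 of the 19 probe sets of the 10 genes were called, 3 of Pdk1 and 1 of Hif1a, against 27.9% of all probe sets.

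Of 10 other genes of the HIF system 1 rose and none fell, with a median of -0.02. The one that rose was Cited2, which is itself induced by HIF and competes with it for a coactivator, by 1.69 (SE 0.32, adjusted p = 0.00366). Epas1, which encodes HIF-2α, differed by 0.35 (SE 0.16, adjusted p = 0.111). Arnt, the common partner subunit, differed by 0.55 (SE 0.47, adjusted p = 0.384), with tumour 2 at 10.96 and the other 8 arrays at 8.45 to 8.83. The probe set of Arnt ends in s_at and can cross-hybridise. Its other probe sets differed by 0.97 (SE 0.55), 0.50 (SE 0.54), 0.04 and -0.07, none called. The prolyl hydroxylase gene Egln3, a known HIF target, read 8.86, 5.78, 10.24, 8.75 and 9.08 in tumours and 8.85, 9.40, 9.45 and 9.37 in livers. The groups differed by -0.72 (SE 0.74, adjusted p = 0.47). Egln1, which encodes the main oxygen-sensing hydroxylase, and Vhl, which encodes the ubiquitin ligase subunit that removes HIF, differed by -0.17 (SE 0.18, adjusted p = 0.496) and -0.05 (SE 0.15, adjusted p = 0.834). The signs of Egln1 and Vhl changed between probe sets.

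Vegfa, the main ligand for growth of blood vessels and a textbook HIF target, read 9.29, 9.70, 9.91, 8.97 and 9.65 in tumours and 9.59, 9.71, 9.28 and 9.75 in livers. Only tumour 3 lay above all livers and only tumour 4 below them. The difference was -0.08 (SE 0.19, 95% interval -0.51 to 0.35, adjusted p = 0.766), and 0.10 with the other probe set (adjusted p = 0.698). Of 9 other VEGF ligands and receptors 1 rose and 2 fell, with a median of -0.16. The ligand Vegfb rose by 1.03 (SE 0.18, adjusted p = 0.00286). Kdr, the main signalling receptor for VEGF-A on endothelium, fell by 1.15 (SE 0.12, adjusted p = 0.000157), and the co-receptor Nrp1 fell by 0.80 (SE 0.11, adjusted p = 0.000797; the other probe sets of Nrp1 differed by -0.49, -0.47 and -0.22, the last not past). Flt1, another receptor, differed by -0.38 (SE 0.20, adjusted p = 0.164) with the main probe set and by 0.04 to 0.42 with 3 others. Beside the receptors, Clec4g, Stab2 and Tek were the endothelial markers that fell, and Pecam1 and Cdh5 differed by 0.40 and -0.10 without passing.

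Car9, which encodes a cell-surface carbonic anhydrase and is among the genes most tightly tied to hypoxia in tumours, read 6.44, 6.29, 6.43, 6.50 and 6.43 in tumours and 6.27, 6.43, 6.43 and 6.43 in livers. The values hardly varied over the 9 arrays, and 4 arrays held the identical value. They lay near the array medians (6.22 to 6.27), and whether the Car9 transcript was detected at all was not tested. The difference was 0.03 (SE 0.07, 95% interval -0.13 to 0.19, adjusted p = 0.774), and its sign turned with arrays centred on the 75th percentile. Of 15 other carbonic anhydrases 3 rose and 4 fell, with a median of -0.26. Car2, a cytosolic form, rose by 3.38 (SE 0.40, adjusted p = 0.000314), with tumours at 11.81 to 12.41 and livers at 7.58 to 9.83. Car13 rose by 1.67 (SE 0.27, adjusted p = 0.00184), while its other probe sets, at or near background, differed by 0.77 and 0.15 and did not pass, and the mean of all 3 gave 0.87. Car5a, the mitochondrial form of hepatocytes, fell by 2.95 (SE 0.54, adjusted p = 0.00333), Car8 by 1.21 (SE 0.27, adjusted p = 0.00793) and Car5b by 0.50 (SE 0.11, adjusted p = 0.00859).

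Of 11 measured glycolysis genes known as HIF-1 targets, 4 rose and none fell, with a median of 0.45, beside 16.1% higher over all genes and 6 of 12 housekeeping genes with a median of 0.34. Pfkp, the platelet form of phosphofructokinase, rose by 2.95 (SE 0.32, adjusted p = 0.000203), its dimmer probe sets by 2.17 and 0.48, and the mean of all 3 by 1.87. The liver form Pfkl rose by 1.61 (SE 0.17, adjusted p = 0.00014), and its dimmer probe sets differed by 1.15 and 0.64, the last not past. Tpi1 rose by 0.82 (SE 0.13, adjusted p = 0.00165), and the fourth was Pkm. Gpi1, Gapdh and Eno1 of that list were not analysed here, apart from control probe sets of Gapdh. The Gapdh 3' control probe set averaged 14.32 ± 0.17 (SD, n = 5) over tumours and 13.87 ± 0.15 (SD, n = 4) over livers, without a test.

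Of 20 further genes known to be induced by hypoxia, 4 rose and 2 fell, with a median of 0.09, which is near the 16.1% higher and 17.4% lower over all genes and no result about the list. Ndrg1, a stress-response gene, read 9.31, 10.52, 11.41, 10.42 and 10.91 in tumours and 7.85, 8.16, 7.96 and 7.86 in livers. It rose by 2.56 (SE 0.35, adjusted p = 0.000761), and its 4 other probe sets by 1.19 to 2.76. Tfrc, the transferrin receptor, rose by 2.75 (SE 0.45, adjusted p = 0.00185), and Ddit4, an inhibitor of mTOR signalling, by 2.48 (SE 0.55, adjusted p = 0.00796). The fourth that rose was Ccng2. Bnip3, a mitophagy receptor, fell by 1.02 (SE 0.34, adjusted p = 0.0448), a call lost without tumour 1 or 4 or any 1 of livers 1 to 4 (-1.06 to -0.78). Mxi1, a MYC antagonist, fell by 0.38 (SE 0.13, adjusted p = 0.0447), a call lost without tumour 1, 3, 4 or 5 or liver 1, 2 or 4 (-0.40 to -0.28). Without the arrays of low Xist none of the 20 was called lower. Tfrc is also abundant in red cell precursors. None of 5 measured erythroid markers was called in either direction, with log2 summed levels of 8.82 to 10.14 for tumours against 9.35 to 11.79 for livers, and Hba-a1 lay near the TrpnX range.

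**Figure D3:**
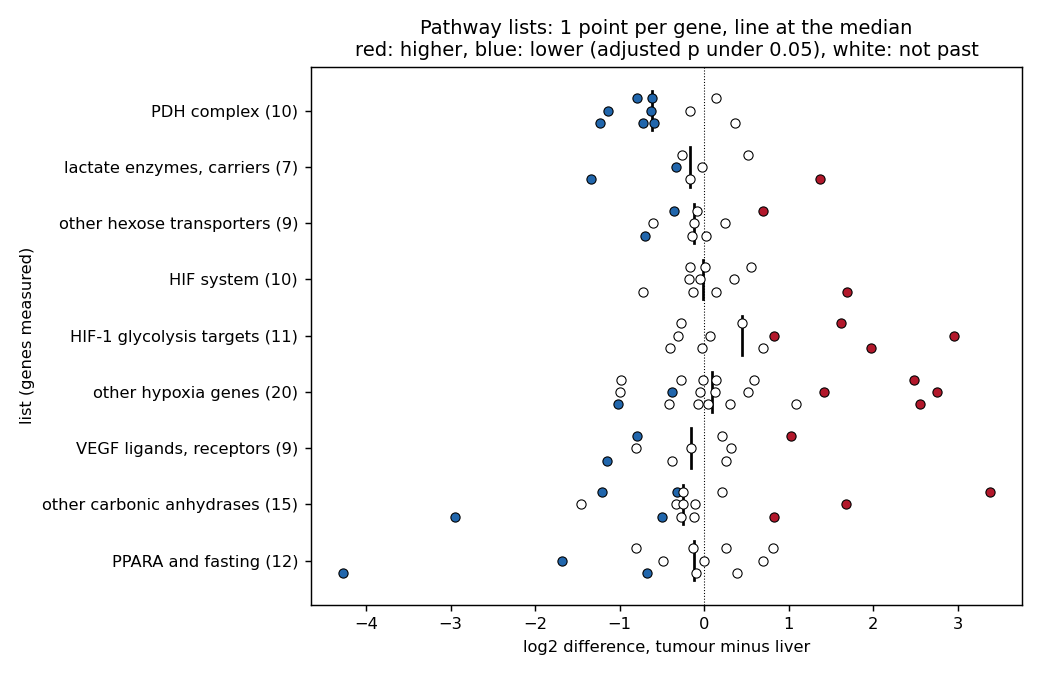
Log2 difference, tumour minus liver, of every measured gene of the 9 pathway lists (number measured in brackets), with the list's median as a line; red and blue points were called higher and lower by limma at an adjusted p under 0.05, white points were not. The pyruvate dehydrogenase list has 7 blue and no red points, and the glycolysis list 4 red and no blue.

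Tumour 3 was the highest of the 5 tumours for 7 of the 10 genes, namely Pdk1, Pdk3, Pdk4, Ldha, Slc2a1, Vegfa and Hif1a, and the lowest for none. Over all genes tumour 3 was the highest for 19.5%. Tumour 4 was the lowest for 5 of the 10, Pdk1, Ldha, Slc2a1, Vegfa and Hif1a, and the highest for 3 more, Pdk2, Slc2a2 and Car9, against 21.7% and 22.5% of all genes. Among the lists, tumour 3 was the highest for 7 of the 11 glycolysis genes and for 15 of the 20 further hypoxia genes, among them Ndrg1 (11.41) and Ddit4 (12.05), and tumour 4 was the lowest for 5 and 12. Tumour 3 also had the highest value for 6 of 8 stellate cell and fibroblast markers and 4 of 8 endothelial markers, and tumour 4 the lowest for 1 and 0. Among 12 housekeeping genes, tumour 4 was the lowest for 6 and tumour 3 the highest for 3. For 8 macrophage and 6 lymphocyte markers, tumour 4 was the highest for 5 and 4 and the lowest for 0 of either list. Tumour 3 was the highest for 2 of each. For 8 hepatocyte markers, tumour 3 was the lowest for 5 and the highest for 0, and tumour 4 was the lowest for 1 and the highest for 3. Over all genes tumour 3 was the lowest for 21.0%. These are counts of genes within single tumours, with no replicate of a tumour and no test, and genes of a list are not independent of each other.

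**Figure D4:**
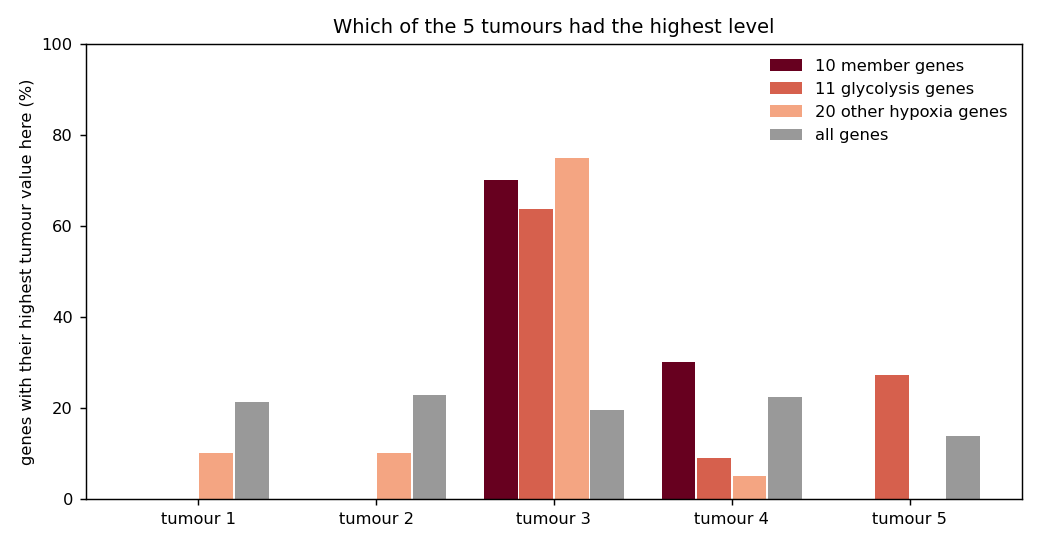
Share of genes, in percent, whose highest value among the 5 tumours was in the tumour shown, for the 10 genes, 11 glycolysis genes, 20 further hypoxia genes and all 18193 genes. Tumour 3 holds 7 of 10, 7 of 11 and 15 of 20, while its share over all genes is 19.5%.

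Pdk4 is a classical target of PPARA in fasting liver, so the genes of that system were set beside it. Of 12 measured genes 3 fell and none rose, beside 17.4% lower over all genes, with a median of -0.12. Cyp4a14, a fatty acid hydroxylase, fell by 4.27 (SE 1.07, adjusted p = 0.0147). Its tumours read 5.33, 10.38, 5.70, 9.14 and 6.52 and its livers 13.15, 11.20, 11.80 and 10.60. Ehhadh, of peroxisomal fatty acid oxidation, fell by 1.68 (SE 0.37, adjusted p = 0.00767), and Acadm, of mitochondrial oxidation, by 0.68 (SE 0.18, adjusted p = 0.0183), a call lost without liver 1 (-0.59). Both calls were lost without the arrays of low Xist (-1.50 and -0.65). Ppara itself differed by -0.80 (SE 0.34, adjusted p = 0.0965) and was called without tumour 4 (-1.00). Without tumour 4, 5 of the list were called lower, and without the arrays of low Xist 1 was called lower and 1 higher.

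The genes whose profile over the 9 arrays was most like that of Pdk1 were found by the root mean square difference between profiles, each centred on its own mean. They were Tm7sf2, a sterol reductase gene, at 0.75 log2 units and Cyp8b1, which encodes a bile acid hydroxylase, at 0.80. The profiles included the step between the groups, so a fall of a size like that of Pdk1 followed from this choice. The SE and adjusted p of these genes are given as description only. Tm7sf2 read 9.21, 8.52, 8.47, 7.14 and 8.27 in tumours and 12.33, 12.27, 13.00 and 11.96 in livers and fell by 4.07 (SE 0.38, adjusted p = 6.95e-05). As for Pdk1, its lowest tumour was tumour 4 and its highest liver was liver 3, while its highest tumour was tumour 1 and not tumour 3. Cyp8b1 fell by 4.68 (SE 0.33, adjusted p = 1.22e-05). It was highest in tumour 3 among tumours (7.26), as Pdk1 was, and lowest in tumour 5 (5.34), where Pdk1 was lowest in tumour 4.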

How the data were processed

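Per the labels' protocols, Trizol RNA of 5 tumours and 4 livers went through 2 rounds of amplification before hybridisation. The authors deposited log2 values for 45101 probe sets, computed by RMA according to the submitters' processing notes, with version and settings not stated. Amplified RNA favours the 3' part of transcripts, and RMA shrinks differences of dim probe sets. No counts exist, so the number of arrays limits the precision, and no scan batch was tested.

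Probe sets with 1 platform symbol (34945) were used and 64 control probe sets were left out; 932 with several symbols and 9160 without one stayed out. The brightest probe set stood for each of 18193 genes, without a filter. Groups were compared with limma 3.58.1 (lmFit, eBayes, two-sided, no covariates) in R 4.3.3, with Benjamini-Hochberg adjustment over all genes, or over 45037 probe sets for probe sets other than the main ones. Adjusted p-values in the text are from this fit unless another test is named. Two-sided exact permutation tests used scipy 1.17.1 in Python 3.11.15 with numpy 2.4.6 and pandas 2.3.3, and plots matplotlib 3.10.9. The fit was tested on simulated data.

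The named genes were the 10 genes, fixed partners of them and the 2 profiles most like each called gene. Each list also gave up to 3 genes in the direction most called members took and 2 in the other. Apob, Clec4g, Stab2, Tek, Pecam1, Cdh5, Hba-a1, Cd68, C1qa, Pkm, Ccng2, Dld, Pdhb and Pdhx were named after their values were seen. The genes and lists were chosen with earlier results of these data known. Alternatives changed the probe set rule, scaling, filter, variance model, array weights, replicate block and arrays used. Promoter windows came from the RefSeq table of GRCm38.p6.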

Additional observations from a re-analysis of the deposited data

Results flagged for a closer look

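In 14 of 122 groups of 4 or 5 arrays the highest or lowest array stood apart from the others by more than Dixon's 95% critical value, which chance alone passes in about 1 of 20 groups. Among the 10 genes these were tumour 3 for Pdk1 in its second probe set (9.06) and for Pdk3 (6.73), liver 4 for Pdk3 (5.95), liver 3 for Ldha (12.67) and liver 1 for Car9 (6.27). Both Pdk3 and Car9 held 1 value that was identical on 4 arrays. Among the partners they were tumour 2 for Arnt (10.96) and Mxi1 (9.41), tumour 3 for Car8 (9.47) and Slc16a3 (6.22), tumour 4 for Ehhadh (12.38) and Vhl (7.16), liver 1 for Egln3 (8.85), and liver 2 for Car8 (11.86) and Slc16a1 (10.77). The causes were not tested.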

How the results depend on the processing

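Pdk1 was called lower under all 19 alternatives, with differences of -4.27 to -2.54 and limma adjusted p-values of 0.000196 to 0.0135. The -2.54 came with the mean of its probe sets, of which 1 lay near background. Pdk2, Pdk4, Ldha and Slc2a2 kept their sign and were not called under any alternative. With 1 array left out their sizes moved by over 1.5 times, with ranges of -0.84 to -0.38, -0.74 to -0.16, 0.12 to 0.34 and -0.92 to -0.42. Hif1a passed with array weights (0.41), which makes 1 gene higher, and lay between 0.28 and 0.45 with 1 array left out (0 to 1 genes higher). Signs turned, without a call, for Slc2a1 with the mean of its probe sets (0.14), without the arrays of low Xist (0.21) and over single arrays left out (-0.47 to 0.035), for Vegfa with the mean of its probe sets (0.010) and over single arrays (-0.18 to 0.053), for Pdk3 (-0.049) and Car9 (-0.15) under 75th percentile centring and over single arrays (-0.018 to 0.20 and -0.0097 to 0.060). The same held for Egln1 (0.018), Flt1 (0.077), Slc2a3 (-0.031) and Vhl (0.023) with the mean of probe sets, Slc2a3 without probe sets ending in x_at or s_at (-0.020), Vhl with array weights (0.031) and over single arrays (-0.12 to 0.071), Egln3 (0.12) and Slc16a3 (0.10) without the arrays of low Xist, and Slc16a3 over single arrays (-0.12 to 0.055). The cause was not tested. Over the 42 named partner genes and all alternatives, 726 values kept sign and side of the threshold, 54 lost the call, 5 gained it and 13 turned sign.

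Same-numbered tumours and livers did not deviate together (r across genes -0.13, -0.07, 0.18 and -0.12), so the numbers were not taken for pairs. A fit with the replicate block drops tumour 5, which has no partner; it gave 3552 calls, 1531 of them lower, against 4980 and 2405 without tumour 5 and no block, and 6091 and 3165 with all arrays. Pdk1 was -3.93 with the block (limma adjusted p = 0.00705) and Slc16a3 0.0034. Of the 42 named partner genes, Acadm, Bnip3, Car5b, Cyp4a14, Ehhadh, Ldhb, Mxi1, Pdp2, Slc2a12 and Slc2a5 lost their calls. Genes outside these 42 lost calls too. With the block 4 of the pyruvate dehydrogenase list were called lower, and 3 of the further hypoxia genes were called higher, without Ccng2. None of the PPARA list was called, and 1 of 4 livers correlated best with its own number. Centring on the 75th percentile moved the median of all genes to -0.26 and gave 8040 lower genes of 10346 called, with 9 carbonic anhydrases and 6 PPARA genes lower; centring on housekeeping genes, of which 6 were themselves called higher and 1 lower, gave 2029 lower. All probe sets tested gave 6076 higher and 6509 lower, 12585 in all.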
